A study of Homo sapiens with 6 samples.

Results

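YAP1 (YAP), WWTR1 (TAZ), 3 of their DNA-binding partners (TEAD1, TEAD3 and TEAD4) and 5 genes known as targets of the complex (CCN1, CCN2, AMOTL2, ANKRD1 and LATS2) were followed in breast cancer cells treated with Parishin B (PB). These 10 genes were found by symbol among the 61806 genes of the deposited table, 1 entry each, and all 10 passed the filter on low values. The cells were labelled MDA-MB-231, a triple-negative line of human breast cancer, kept as control (3 samples) or given PB at 20 μM over 24 h (3 samples), and the labels list no genetic change in either group. PB is a phenolic glucoside of the orchid Gastrodia that the study took up as a ligand of the pseudokinase TRIB3, and the sequencing asked which genes respond to it. No vehicle is named for the control samples of the sequencing, and nothing states that the 3 samples of a group were separate cultures, so p-values measure the spread between these samples, which may be technical.

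YAP and TAZ are transcriptional coactivators that have no DNA-binding domain of their own. They enter the nucleus when the Hippo kinases MST and LATS are inactive, bind TEAD proteins and switch on genes of growth, adhesion and matrix. LATS phosphorylates both coactivators and holds them in the cytoplasm, and LATS2 and AMOTL2, which restrain YAP and TAZ, are themselves target genes. The pathway responds to cell density, actin tension and soluble ligands, and triple-negative breast cancer lines are known for high YAP and TAZ activity. RNA-seq measures the mRNA of these genes and not the phosphorylation or location of the proteins.

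Total counts were between 15681655 and 21986948 per sample. Each sample held between 42 and 6037 counts of any of the 10 genes, all above the floor of 3 counts used for detection, which covers counting error only. Of 8 genes taken as markers of this mesenchymal-like line, vimentin (VIM) was at 591.7 to 639.4 FPKM and CD44 at 40.1 to 53.3 FPKM over both groups, while SPARC was at no more than 0.93 FPKM. With PB 5 of the 8 were called lower and 2 higher by the edgeR test given below. Of all 24200 genes tested, 26.1% were called lower and 24.1% higher. CAV1 fell 2.23-fold and MSN 1.55-fold. The receptors that define triple-negative cells were low, with ESR1 at no more than 0.17 FPKM, PGR at no more than 0.10 FPKM and ERBB2 between 2.82 and 3.75 FPKM. Another feature separated the groups. The summed level of 11 genes picked from earlier results of these data as nearly absent with PB (such as ALDH1A1, CXCL5 and CEACAM6) was 2402 to 2412 CPM (counts scaled to equal library totals) in control and 3.12 to 4.03 with PB. ALDH1A1 alone was at 478.9 to 479.9 FPKM in control and at no more than 0.13 FPKM with PB. A list of 20 epithelial genes summed to 1829 to 1850 CPM in control and 642.3 to 663.1 with PB, and 3 keratins (KRT7, KRT8 and KRT18) made up 1780 to 1801 and 628.5 to 647.4 CPM of these sums. Of the 10 tested genes of this epithelial list 6 were called lower and 1 higher, against the same 26.1% and 24.1% of all genes tested. CDH1 and ELF3 were at 3.72 to 4.32 and 1.83 to 2.17 FPKM in control and at no more than 0.02 and 0.01 FPKM with PB, whereas ESRP1 rose 3.09-fold, from 0.38 to 0.41 FPKM in control to 1.16 to 1.49 FPKM with PB, and GRHL2, OVOL1 and ESRP2 were at no more than 0.08 FPKM in every sample. These lists move with the group in every comparison below, and their part in the results was not tested. Whether the control and PB libraries come from the same stock of cells was not tested either, and any such difference cannot be told apart from an effect of PB. In bulk samples, fewer cells that express a gene and less RNA per cell cannot be told apart.

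YAP1 mRNA moved least and its direction depended on the scaling, while the mRNAs of TAZ, TEAD1 and TEAD4 fell and that of TEAD3 rose. The targets did not move as a block. ANKRD1 fell 16.7-fold and CCN1 fell 2.73-fold, whereas CCN2 fell 1.38-fold and AMOTL2 1.17-fold, and LATS2 was higher by a log2 fold change of 0.13. By edgeR's quasi-likelihood test, which compares raw counts after TMM scaling, 8 of the 10 genes were lower and 2 were higher, with p adjusted by Benjamini-Hochberg over every gene tested and called at 0.05 or less. Calls were frequent throughout these data, since 26.1% of the 24200 genes tested were called lower and 24.1% higher, 50.2% in all. They were more frequent among expressed genes, to which all 10 belong. In a fit of the 13533 genes with a mean of at least 1 FPKM, 36.1% were called lower and 36.0% higher. In that fit 7 of the 10 genes were lower and 2 higher. With a change of at least 2-fold as well, 2 of the 10 genes (CCN1 and ANKRD1) were lower and 0 were higher, against 6.73% and 5.36% of all genes tested. The median log2 fold change of the 10 genes was -0.46, and that of all genes tested was 0.011.

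**Figure D1:**
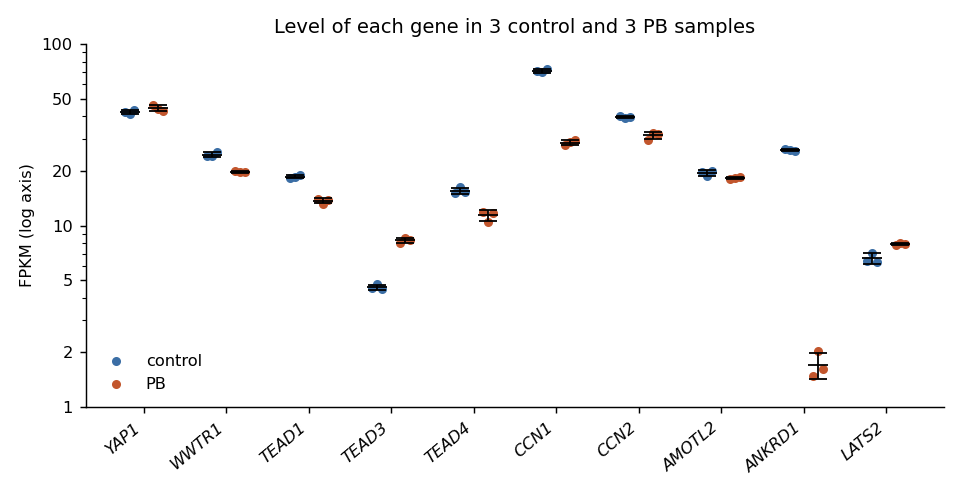
FPKM (log axis) of the 10 genes in the 3 control samples (blue) and the 3 PB samples (orange), with points for samples and bars for the mean ± SD. ANKRD1 drops from above 25 to near 2 FPKM and CCN1 from about 70 to below 30 FPKM, while the points of YAP1 overlap between the groups.

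YAP1, on chromosome 11 from 102110447 to 102233424 (hg38), had 42.2, 41.3 and 43.5 FPKM in control replicates 1, 2 and 3 and 46.0, 44.1 and 42.9 FPKM in the PB replicates. The groups overlapped. Its log2 fold change in the fit was -0.069 (standard error 0.027, adjusted p = 0.021, edgeR), although the mean FPKM was the higher with PB (44.3 ± 1.57 against 42.3 ± 1.13, SD, n = 3). The sign of the YAP1 change thus depended on the scaling. FPKM divides by the total count, and with library size alone in place of TMM the log2 fold change of YAP1 was 0.064 and was called higher (adjusted p = 0.025, edgeR), while the median over all genes tested moved from 0.011 to 0.14. The call was lost with DESeq2 (adjusted p = 0.068), with limma on FPKM (adjusted p = 0.15), among genes with a mean of at least 1 FPKM (edgeR adjusted p = 0.22) and without control replicate 3, PB replicate 2 or PB replicate 3 (edgeR adjusted p = 0.24, 0.076 and 0.17).

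WWTR1, on chromosome 3 from 149517235 to 149736714, had 24.02, 24.12 and 25.45 FPKM in the control samples and 20.1, 19.6 and 19.6 FPKM with PB. Every PB sample lay below every control sample, and the log2 fold change was -0.45 (standard error 0.030, adjusted p = 3.65e-50, edgeR). TAZ mRNA therefore fell relative to YAP mRNA. In each sample the ratio of WWTR1 to YAP1 FPKM does not depend on the scaling between samples, and it went from 0.579 (range 0.569 to 0.585) in control to 0.446 (range 0.436 to 0.457) with PB. The difference was -0.38 on the log2 scale, larger than the spread between replicates (SD 0.022 and 0.034, n = 3), and an exact permutation test (two-sided) gave p = 0.1, below which groups of 3 cannot go.

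The TEAD proteins bring YAP and TAZ to DNA and are encoded by 4 related genes. TEAD1, on chromosome 11 from 12674421 to 12944737, had 18.2, 18.6 and 19.0 FPKM in control and 13.9, 13.2 and 13.9 FPKM with PB, a log2 fold change of -0.58 (standard error 0.030, adjusted p = 2.66e-79, edgeR). TEAD4, on chromosome 12 from 2959330 to 3040676, had 15.0, 16.2 and 15.3 FPKM in control and 11.9, 10.5 and 11.7 FPKM with PB, a log2 fold change of -0.58 (standard error 0.061, adjusted p = 1.12e-20, edgeR). These 2 genes fell by the same factor of 1.49, with no overlap between the groups. TEAD3, on chromosome 6 from 35473597 to 35497079, went the other way, with 4.54, 4.75 and 4.46 FPKM in control and 8.03, 8.58 and 8.34 FPKM with PB. Its log2 fold change was 0.73 (standard error 0.077, adjusted p = 1.45e-20, edgeR), a 1.66-fold increase and the largest rise among the 10 genes. TEAD2 had 6.21 to 7.46 FPKM in control and 6.57 to 8.47 FPKM with PB and did not pass the test (log2 fold change 0.027, standard error 0.072, adjusted p = 0.79, edgeR).

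The make-up of TEAD mRNA shifted accordingly. TEAD3 held 10.1, 10.1 and 9.91% of the summed FPKM of TEAD1 to TEAD4 in the control samples and 19.0, 22.1 and 19.8% in the PB samples. TEAD1 went from 40.7 ± 1.41% to 33.3 ± 0.573% and TEAD4 from 34.0 ± 0.609% to 27.7 ± 0.562% (SD, n = 3). TEAD2 went from 15.3 ± 1.32% to 18.8 ± 1.64% (SD, n = 3). For all 4 shares the groups did not overlap, and each exact two-sided permutation test gave p = 0.1, the smallest possible. The shares of one sample sum to a whole, so these are not 4 independent results. TEAD1 stayed the most abundant TEAD mRNA in both groups, and the sum over the 4 genes was 45.0 to 47.0 FPKM in control and 38.8 to 42.4 FPKM with PB.

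**Figure D2:**
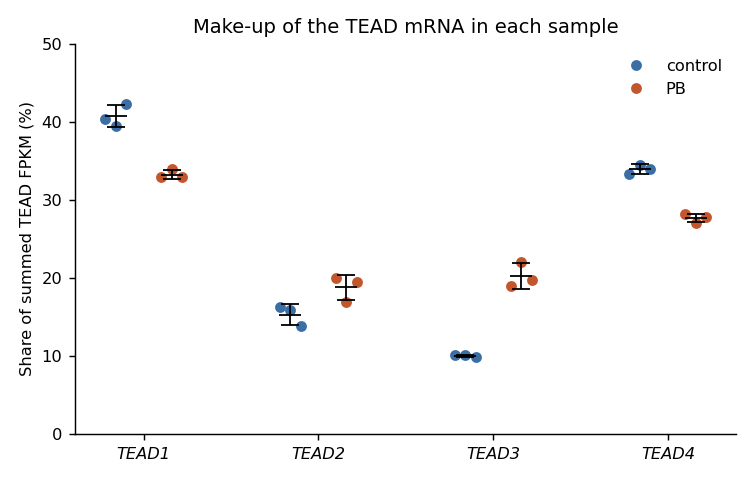
Share of the summed FPKM of TEAD1 to TEAD4 (%, from 0) held by each gene in the 3 control (blue) and 3 PB samples (orange), with bars for the mean ± SD. The TEAD3 share is near 10% in every control sample and at least 19.0% in every PB sample, while the TEAD1 and TEAD4 shares are lower with PB.

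Among the targets, ANKRD1 had the largest change. It encodes an ankyrin repeat protein of muscle and stressed cells and lies on chromosome 10 from 90912096 to 90921087. ANKRD1 had 26.4, 26.0 and 25.7 FPKM in control and 1.48, 2.03 and 1.62 FPKM with PB, from 771, 798 and 1012 counts in the control samples and 42, 57 and 55 counts in the PB samples. The PB samples were far below the control samples and still above the floor. The log2 fold change was -4.06 (standard error 0.092), with an adjusted p too small to print (log10 of -417, edgeR).

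CCN1 (CYR61) and CCN2 (CTGF) are secreted matrix proteins that bind integrins and are the most used readouts of YAP and TAZ activity. CCN1, on chromosome 1 from 85580761 to 85584589, had 70.7, 69.8 and 73.2 FPKM in control and 27.9, 28.7 and 29.5 FPKM with PB. This was a log2 fold change of -1.45, with a standard error of 0.031 and an adjusted p whose log10 was -476 (edgeR). CCN2, on chromosome 6 from 131948176 to 131951372, had 40.2, 38.9 and 39.6 FPKM in control and 29.6, 32.4 and 32.0 FPKM with PB, with a log2 fold change of -0.47 (standard error 0.039, adjusted p = 4.37e-32, edgeR). Both fell without overlap between the groups, CCN2 by much less. The ratio of CCN1 to CCN2 FPKM was 1.76 to 1.85 in the control samples and 0.884 to 0.940 in the PB samples, so the order of the 2 genes was inverted. The difference in the log2 ratio was -0.98 (SD 0.036 and 0.045, n = 3), and the exact two-sided permutation test gave the smallest possible p of 0.1.

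AMOTL2 and LATS2 are targets that act back on the pathway. AMOTL2, an angiomotin that keeps YAP at junctions and actin, lies on chromosome 3 from 134355347 to 134375479 and had 19.7, 18.8 and 20.1 FPKM in control and 18.1, 18.3 and 18.6 FPKM with PB. The groups were close without overlapping. Its log2 fold change of -0.22 (standard error 0.034, adjusted p = 2.07e-10, edgeR) was a 1.17-fold decrease, and limma with trend on log2(FPKM + 0.1) did not call it (-0.088, adjusted p = 0.056). LATS2, a kinase that inactivates YAP and TAZ, lies on chromosome 13 from 20973036 to 21061586 and had 6.36, 7.10 and 6.33 FPKM in control and 7.78, 8.04 and 7.91 FPKM with PB. It was higher in every PB sample, with a log2 fold change of 0.13 (standard error 0.053, adjusted p = 0.025, edgeR). DESeq2 gave LATS2 the same log2 fold change with an adjusted p of 0.12, and the call was also lost without control replicate 1 or 3 or PB replicate 2 or 3 (edgeR adjusted p = 0.090, 0.18, 0.075 and 0.073). Relative to its sister kinase LATS1, LATS2 did not differ by more than the spread between replicates, with a ratio of 0.542 in control and 0.530 with PB (exact two-sided permutation test, p = 0.7). AMOTL2 rose relative to its sister gene AMOTL1, from a ratio of 2.08 to 2.35 with no overlap between the groups (exact permutation, two-sided p = 0.1, at its lower limit).

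**Figure D3:**
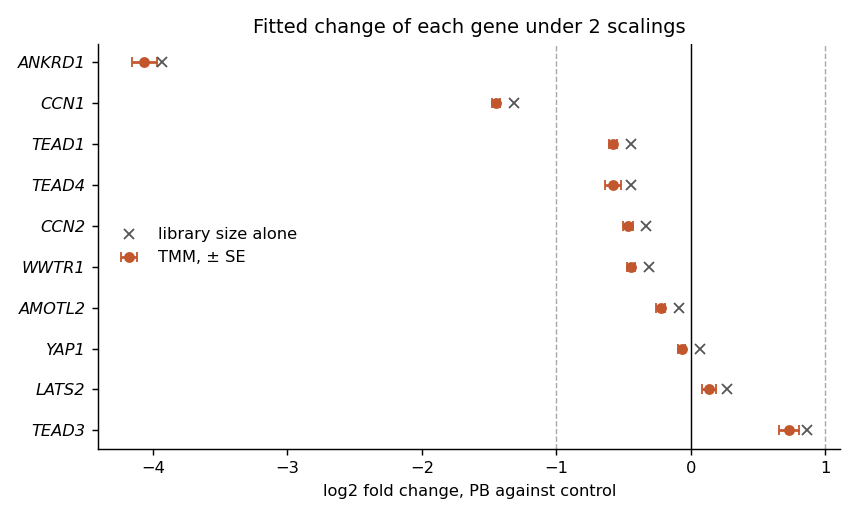
Log2 fold change of the 10 genes, PB against control, with TMM scaling (circles, bars for the standard error) and with library size alone (crosses), with dashed lines at a 2-fold change. ANKRD1 (-4.06) and CCN1 (-1.45) lie beyond the line, and YAP1 is the gene whose sign differs between the scalings.

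In FPKM, which is per exonic length and allows levels of different genes to be compared, the order of the 10 genes changed mostly through CCN1 and ANKRD1. In control it ran CCN1, YAP1, CCN2, ANKRD1, WWTR1, AMOTL2, TEAD1, TEAD4, LATS2 and TEAD3, from 71.2 down to 4.58 FPKM, and the only neighbours with overlapping ranges were AMOTL2 and TEAD1. With PB it ran YAP1, CCN2, CCN1, WWTR1, AMOTL2, TEAD1, TEAD4, TEAD3, LATS2 and ANKRD1, from 44.3 down to 1.71 FPKM, and the only overlapping neighbours were TEAD3 and LATS2. ANKRD1 went from the fourth place to the last. FPKM ranges of the groups did not overlap for 7 genes that were lower (WWTR1, TEAD1, TEAD4, CCN1, CCN2, AMOTL2 and ANKRD1) and for 2 that were higher (TEAD3 and LATS2), as was the case for 21.6% and 34.1% of all genes tested. Among 13533 genes with a mean of at least 1 FPKM, the 3 whose 6 samples lay nearest to those of CCN1 on the log2 scale, centred on the control mean, were FANCI (distance 0.055), MCM7 (0.078) and KIF11 (0.079). For YAP1 they were C5orf24 (0.029), KLHL18 (0.032) and GTPBP1 (0.034).

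The TEAD motif cores before the starts of CCN2, ANKRD1 and AMOTL2 are shown because all 3 genes carry one although they fell by very different factors. The search covered the 250 bases before each transcription start in RefSeq on GRCh38.p14. Of these windows, 189 bases for ANKRD1 and 147 bases for AMOTL2 are exon in GENCODE v29, which has transcripts that begin further upstream, so only the part of the ANKRD1 and CCN2 windows outside exons and 30 bases around the matches inside them are given. Each line runs 5′ to 3′ on the strand of the gene (minus for all 3), with the TEAD core GGAATG or its reverse complement CATTCC in capitals. The stretches are chr6:131951374-131951622 for CCN2, chr10:90921277-90921337 and chr10:90921198-90921227 for ANKRD1 and chr3:134374499-134374528 for AMOTL2.
CCN2: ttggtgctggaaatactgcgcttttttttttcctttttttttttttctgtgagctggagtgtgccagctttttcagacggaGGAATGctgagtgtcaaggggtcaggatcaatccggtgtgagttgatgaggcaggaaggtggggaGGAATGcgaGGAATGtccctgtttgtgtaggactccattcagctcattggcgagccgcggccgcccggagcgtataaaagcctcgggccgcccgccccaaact
ANKRD1, upstream match: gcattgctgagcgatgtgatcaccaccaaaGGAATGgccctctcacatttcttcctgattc
ANKRD1, downstream match: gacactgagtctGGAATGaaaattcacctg
AMOTL2: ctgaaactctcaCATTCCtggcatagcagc
CCN2 held 3 matches, starting 169, 104 and 95 bases before the start, ANKRD1 held 2, at 220 and 128 bases, and AMOTL2 held 1, at 69 bases. In the same window of all 35116 promoters of the table, 11.9% held at least 1 match, 0.94% at least 2 and 0.0826% at least 3. YAP1 held 1 match, 162 bases before its start, and the windows of WWTR1, TEAD3 and LATS2 held none. The table matched 7 of the 10 genes, and CCN1, TEAD1 and TEAD4 were not matched. AMOTL2 and WWTR1 each have 2 windows, and the AMOTL2 match lies in that of its downstream start. AP-1, a factor that often binds beside TEAD, was searched as TGANTCA, a loose pattern that allows any base in the middle. It was found once in ANKRD1, with a T in the middle, 195 bases before the start and without overlap with the TEAD core. The same pattern was found in 6.57% of all promoters. CCN2 with 3 matches fell 1.38-fold, ANKRD1 with 2 fell 16.7-fold and AMOTL2 with 1 fell 1.17-fold. These 3 genes were picked for their different changes, so no relation between matches and change can be read from them. Sequence beyond the 250 bases was not searched. A match is a run of letters and not a measured binding site.

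**Figure D4:**
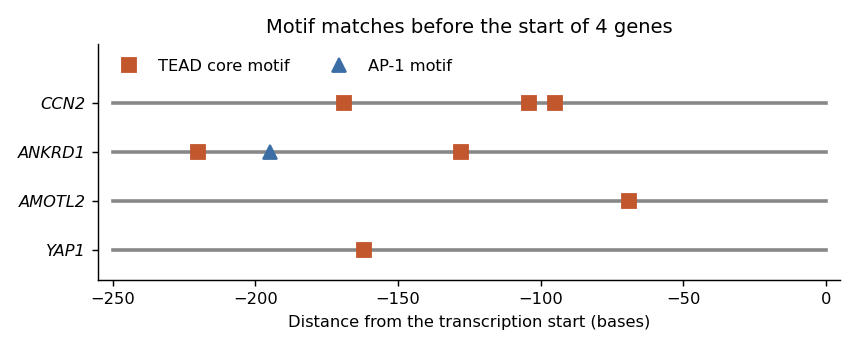
Position of matches to the TEAD core motif (squares) and the loose AP-1 motif TGANTCA (triangle) in the 250 bases before the transcription start of CCN2, ANKRD1, AMOTL2 and YAP1, in bases from the start. CCN2 has 3 TEAD core matches, ANKRD1 has 2 with an AP-1 match between them, and AMOTL2 and YAP1 have 1 each.

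Other genes of a general YAP and TAZ target signature were also uneven. Of 17 such genes beside the 10 above, all were tested, and 9 were lower, 4 were higher and 4 did not pass. Among all genes tested, 26.1% were lower and 24.1% higher. In the fit of genes with a mean of at least 1 FPKM, 8 were lower and 5 higher, against 36.1% and 36.0% of the genes in it. The median log2 fold change of the 17 genes was -0.34. FOXF2, at the floor of 3 counts with PB, lies below that median at its bound too, so its value cannot move the median. With library size alone 9 of the 17 were lower and 7 higher, and of all genes tested 20.2% were lower and 31.7% higher under that scaling. The 6 that fell at least 2-fold were IGFBP3, FOXF2, TGFB2, NUAK2, FJX1 and CCDC80, of which CCDC80 was short of 2-fold with library size alone, with limma on FPKM and without PB replicate 3 (log2 fold changes -0.93, -0.89 and -0.99). IGFBP3, which binds insulin-like growth factors, went from 21.0, 18.4 and 19.4 FPKM in control to 0.74, 0.81 and 0.72 FPKM with PB, a log2 fold change of -4.83, with a standard error of 0.075 and an adjusted p whose log10 was -885 (edgeR). It fell further than ANKRD1. TGFB2, a ligand of the TGF-beta family, went from 4.04, 4.27 and 3.90 FPKM to 0.86, 0.71 and 0.85 FPKM (log2 fold change -2.46, standard error 0.098), and NUAK2, a kinase of the AMPK family, from 3.09, 3.55 and 3.35 FPKM to 1.06, 0.92 and 0.98 FPKM (-1.89, standard error 0.13). FOXF2, a forkhead factor, had 34, 36 and 35 counts in control and 2, 3 and 0 counts with PB, at the floor, a ratio of counts of 19.1 (exact 95% interval 7.95 to 60.2, counting error only). FJX1 (log2 fold change -1.65) and CCDC80 (-1.06) completed the list. The 4 higher genes were NT5E, the ecto-nucleotidase CD73, from 139.5 ± 1.60 to 230.7 ± 3.54 FPKM (SD, n = 3, log2 fold change 0.59), the stress gene GADD45A (0.56), ARHGEF17 (0.17) and MYOF (0.062). ARHGEF17 was not called without PB replicate 2 (edgeR adjusted p = 0.072), and MYOF was not called without control replicate 3 or PB replicate 1 (edgeR adjusted p = 0.059 and 0.060). None of the 4 rose 2-fold. AXL, a receptor tyrosine kinase named after its values were seen, with the highest FPKM of this list in control, fell from 254.0 ± 1.91 to 219.6 ± 3.22 FPKM (log2 fold change -0.34), and ASAP1, F3, PTPN14 and RBMS3 did not pass, with log2 fold changes from -0.022 to 0.077. The promoter table matched 12 of the 17 genes, and 5 of these (41.7%) held a TEAD core in at least 1 window, against 14.3% of the 27305 genes in it. This share describes a list chosen as YAP and TAZ targets and not the response to PB.

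**Figure D5:**
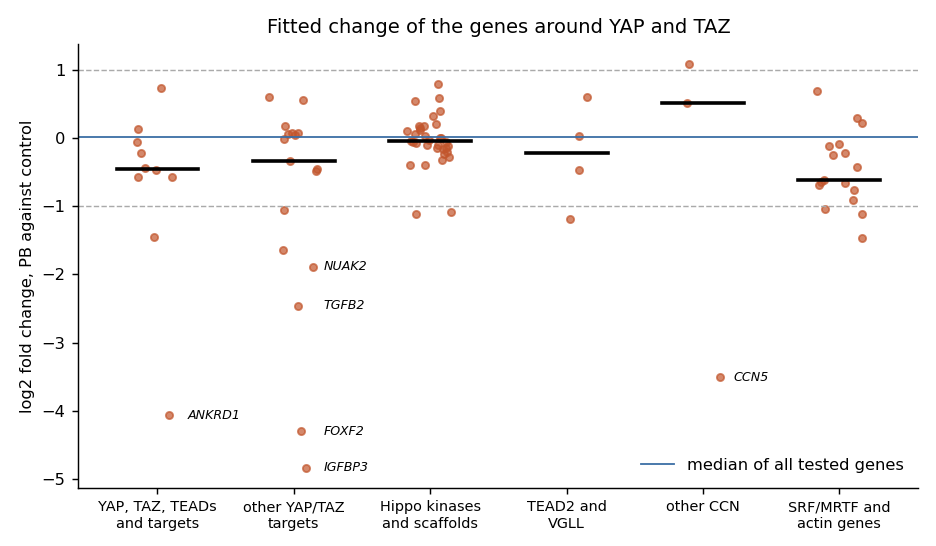
Log2 fold change, PB against control, of each tested gene in 6 lists (points, spread sideways for visibility), with the list median (black bar), the median of all tested genes (blue line) and dashed lines at a 2-fold change. ANKRD1, IGFBP3, FOXF2, TGFB2, NUAK2 and CCN5 lie furthest below, and the value drawn for FOXF2, which is at the floor with PB, is a fitted value and not a bound.

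Upstream, the Hippo kinases and their scaffolds were called in both directions, as were genes throughout these data. Of 34 genes, 14 were lower, 10 were higher and 10 did not pass, against 26.1% lower and 24.1% higher among all genes tested. In the fit of genes with a mean of at least 1 FPKM, 13 were lower and 11 higher, against 36.1% and 36.0% of the genes in it. The median log2 fold change of the 34 genes was -0.049. Their balance depended on the scaling, since 6 were lower and 16 higher with library size alone. Under that scaling 20.2% of all genes tested were lower and 31.7% higher. WWC1 and NF2 were the genes of this list that changed at least 2-fold, with ranges over the alternatives of -1.13 to -0.97 and -1.12 to -0.93 on the log2 scale. WWC1 (KIBRA), a scaffold of LATS activation, went from 9.14, 9.43 and 9.26 FPKM to 4.73, 4.67 and 4.63 FPKM (log2 fold change -1.12, standard error 0.043, adjusted p = 1.14e-150, edgeR). NF2 (merlin), which recruits LATS to the membrane, went from 6.23, 6.28 and 6.28 FPKM to 3.10, 3.24 and 3.39 FPKM (log2 fold change -1.08, standard error 0.058, adjusted p = 7.17e-77, edgeR). These are mRNA levels, and whether these cells make working merlin was not tested. Of the core kinases, named here after their values were seen, the MST genes STK3 and STK4 had log2 fold changes of -0.23 and 0.096 and LATS1 had 0.17, and STK3 was not called with library size alone. The third largest decrease was that of AMOTL1 (-0.40). The largest increases were of the kinases MAP4K1 (0.78, at no more than 0.55 FPKM), MAP4K2 (0.58) and CSNK1E (0.54), and DESeq2 did not call MAP4K1 (adjusted p = 0.052).

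The VGLL proteins compete with YAP and TAZ for TEAD. VGLL4, which represses TEAD targets, rose from 3.11, 3.33 and 3.34 FPKM to 5.37, 5.52 and 5.39 FPKM (log2 fold change 0.60, standard error 0.060, adjusted p = 3.66e-22, edgeR). VGLL3 fell from 0.91, 0.97 and 0.95 FPKM to 0.52, 0.43 and 0.42 FPKM (log2 fold change -1.19, standard error 0.11, adjusted p = 1.63e-24, edgeR). Its log2 fold change ran from -1.29 to -0.91 over the alternatives, so the fall was not always 2-fold. VGLL2 did not pass and VGLL1 had 0 FPKM in every sample and was not tested. The other members of the CCN family were low in control, at no more than 1.52 FPKM. CCN3 rose from 0.80 to 1.52 FPKM in control to 2.44 to 2.84 FPKM with PB (log2 fold change 1.08, standard error 0.16). The CCN3 value ran from 0.84 to 1.33 over the alternatives, so the rise was not always 2-fold. CCN5 fell from 34, 31 and 53 counts to 2, 2 and 6 counts (log2 fold change -3.51, standard error 0.39). This value rests on few counts and ran from -4.12 to -1.89 over the alternatives, and the ratio of CCN5 counts was 10.8 (exact 95% interval 5.65 to 23.0, counting error only). CCN6 did not pass and CCN4 was not tested.

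SRF with its MRTF cofactors is another actin-linked factor that shares targets such as CCN1, CCN2 and ANKRD1 with YAP. Of 18 genes of SRF, MRTF and the actin cytoskeleton, 17 were tested, and 14 were lower and 3 were higher. Among all genes tested, 26.1% were lower and 24.1% higher. In the fit of genes with a mean of at least 1 FPKM these shares were 36.1% and 36.0%, and this list was not counted there. The median log2 fold change of the 17 genes was -0.61. With library size alone 10 of the 17 were lower and 3 higher, against 20.2% and 31.7% of all genes tested. CALD1, ACTA2 and TPM1, which encode caldesmon, smooth muscle actin and tropomyosin 1, fell at least 2-fold (log2 fold changes -1.47, -1.12 and -1.05), although ACTA2 and TPM1 were short of 2-fold with library size alone (-0.98 and -0.91) and with limma on FPKM (-0.93 and -0.91). TPM1 went from 38.1, 38.4 and 38.2 FPKM to 20.4, 19.9 and 20.6 FPKM. SRF itself was higher, from 15.7, 16.5 and 16.6 FPKM to 20.6, 20.5 and 20.8 FPKM (log2 fold change 0.21, standard error 0.040, adjusted p = 5.21e-07, edgeR), as were TAGLN (0.68) and ZYX (0.29). In the deposited annotation, 269 entries belong to the Hippo signaling pathway (ko04390). Of the 164 that were tested, 77 were lower and 43 were higher, against 26.1% and 24.1% of all genes tested. Here too the shares among genes with a mean of at least 1 FPKM were 36.1% and 36.0%, and the pathway was not counted in that fit. The median log2 fold change of the 164 was -0.15. Library size alone gave 55 lower and 55 higher, where 20.2% of all genes tested were lower and 31.7% higher. These entries include 8 of the 10 genes, and CCN1 and ANKRD1 are not among them.

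Genes that overlap the 10 genes held few counts. Of the genes that overlap them in the table, such as WWTR1-AS1, CCN2-AS1 and LATS2-AS1, none held more than 17 counts in any sample. Whether counting used strand is not given in the sources used here. The TEAD genes are paralogs, and whether reads shared between them were split or dropped is not given in the sources used here.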

How the data were processed

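Poly(A) mRNA of MDA-MB-231 cells was sequenced as paired-end reads. The table deposited by the authors holds raw counts per gene, the exonic length of each gene in bases, and FPKM. In every sample the deposited FPKM equalled count × 10⁹ over exonic length and total count, within 0.006. The submitters' processing notes name hg38, HTSeq 0.6.1, Cufflinks 2.2.1 and DESeq2, and the aligner is not given in the sources used here. Genes with a mean of at least 0.1 FPKM (24200 of 61806) were tested with the edgeR 4.0.16 quasi-likelihood test (R 4.3.3, TMM, 3 control against 3 PB samples) and p-values were adjusted over all of them by the Benjamini-Hochberg method. Alternatives were RLE scaling, library size alone, other filters, a replicate block, each sample left out, DESeq2 1.42.0, and limma 3.58.1 with trend on log2(FPKM + 0.1). The edgeR fit was tested on simulated counts with as many raised as lowered genes. That simulation does not bear on the choice of scaling. The common dispersion was 0.000495, so small changes pass the test.

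Members and gene lists were chosen with earlier results of these data known. From each list the text names the genes past the test and the 2-fold line, and the 3 with the largest changes in each direction among those called. FOXF2 was at or under the floor of 3 counts in every PB library, and CCN5 had 2, 2 and 6 counts with PB. For both, the ratio of summed counts scaled by library totals is given with an exact (Clopper-Pearson) interval. Nearest genes were found by Euclidean distance of log2 normalised CPM. Ratios and shares were compared by exact permutation tests, 8 in all, each with a smallest possible p of 0.1, so none could pass 0.05 before or after adjustment. Promoter windows came from RefSeq.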

Additional observations from a re-analysis of the deposited data

How the results depend on the processing

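WWTR1, TEAD1, TEAD3, TEAD4, CCN1, CCN2 and ANKRD1 kept their direction and were called under all 13 alternatives, with CCN1 between -1.47 and -1.31 and ANKRD1 between -4.19 and -3.86 on the log2 scale. LATS2 was called higher in 8 of 13. YAP1 was called lower in 6 and higher in 1 of 13, and turned to 0.064 (called) with library size alone and to 0.066 (not called) with limma on FPKM. Of the 10 genes, 1 was higher with DESeq2 and 1 to 2 when a sample was left out, and 1 was lower past a log2 line of 2. With library size alone 7 genes of the target list were higher, and 6 upstream genes were lower and 16 higher, while limma on FPKM gave 6 upstream genes lower. That scaling leaves out the TMM factors and moves the median of all genes tested from 0.011 to 0.14. The LATS2 to LATS1 ratio, -0.034 on the log2 scale, ranged from -0.089 to 0.036 when a sample was left out, with 0.018 without PB replicate 1. All-gene calls were 5475 lower and 4743 higher with DESeq2.

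With the replicate number as a block, 6231 genes were lower and 5726 higher, against 6322 and 5829 without it, and the 10 genes stayed at 8 lower and 2 higher. Same-numbered samples correlated at 0.00203, 0.0452 and -0.0227 in their deviations, and not every sample correlated best with its own number, so the numbers were not taken as pairs. FOXF2 and CCN5 are limited by depth, with at most 3 and 6 counts in a PB sample.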
